A study of Mus musculus with 8 samples.

Results

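The results concern 10 genes of the circadian clock and its output, Tef, Dbp, Per2, Per3, Nr1d1, Nr1d2, Arntl, Npas2, Cry1 and Nfil3. They were selected on their normalized counts in the 8 libraries, with the difference between the allergen-treated genotypes in view, and all 10 were found among the 25124 gene symbols of the table. The data are RNA-seq libraries of sorted C57BL/6 mouse lung cells labelled airway epithelial cells. The 8 libraries fall into 4 groups of 2. STAT3-cKO mice, which carry a conditional knockout of the transcription factor STAT3, were given house dust mite (cKO HDM), an allergen that causes type 2 airway inflammation. STAT3-WT mice (WT HDM) were given the same allergen. STAT3-cKO (cKO PBS) and STAT3-WT mice (WT PBS) given phosphate-buffered saline made up the other groups. Which promoter drives the deletion and in which cells, the allergen schedule, the light cycle, the hour of collection and the age of the mice were not stated in the labels.

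The clock is a feedback loop present in nearly every cell. ARNTL (BMAL1) pairs with CLOCK or its relative NPAS2, binds E-box sequences and switches on the Per and Cry genes, whose proteins then block it. The same pair switches on Nr1d1 and Nr1d2, whose products REV-ERB alpha and beta repress Arntl, Npas2, Cry1 and Nfil3 through ROR elements. It also drives Dbp and Tef, activators of the PAR bZIP family that bind D-box sequences, at which NFIL3 (E4BP4) acts as a repressor. In mouse tissues, Dbp, Tef, the Per genes and the REV-ERB genes therefore peak in one part of the day, and Arntl, Npas2, Cry1 and Nfil3 in a roughly opposite part. In lung, the clock of club cells, the secretory cells of the airway lining, is known to shape neutrophil recruitment.

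RefSeq promoter windows (GRCm38.p6, from 250 bases before to 50 after a transcript start) were found for 9 of the 10 genes, in 11 windows. They are shown only for genes whose window holds a clock motif. The motifs searched, on both strands, were the E-box CACGTG, the D-box TTANGTAA and the ROR element core TAGGTCA. The E-box was present in both Tef windows and in that of Cry1, against 7.15% of all 32851 windows. The D-box was present in the Per3 window, where it occurred 2 times, against 2.32% of all windows. The ROR element core was present in 1 Arntl window and in the Nfil3 window, against 2.61% of all windows. The windows of Dbp, Nr1d1, Nr1d2 and Npas2 held none of these motifs, and Per2 had no window. The 250 bases before the start are printed for Tef (chr15:81802423-81802672, plus strand) and Per3 (chr4:151044666-151044915, minus strand). Stretches of 30 bases are printed for Cry1 (chr10:85185096-85185125, minus strand), Arntl (chr7:113207530-113207559, plus strand) and Nfil3 (chr13:52981033-52981062, minus strand). Capitals mark the motif, the E-box in Tef and Cry1, the D-box in Per3 and the ROR element core in Arntl and Nfil3, where the last is read on the opposite strand.
Tef: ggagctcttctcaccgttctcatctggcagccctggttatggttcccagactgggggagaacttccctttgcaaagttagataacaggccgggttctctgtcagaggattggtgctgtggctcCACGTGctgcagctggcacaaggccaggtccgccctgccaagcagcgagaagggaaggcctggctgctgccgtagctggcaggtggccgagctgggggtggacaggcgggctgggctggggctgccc
Per3: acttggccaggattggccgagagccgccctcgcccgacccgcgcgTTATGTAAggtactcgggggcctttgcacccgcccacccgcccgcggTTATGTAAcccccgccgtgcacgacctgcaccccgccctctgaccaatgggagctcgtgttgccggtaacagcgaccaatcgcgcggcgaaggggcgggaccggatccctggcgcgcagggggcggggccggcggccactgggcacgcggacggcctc
Cry1: gtgccggtggtCACGTGgggtgcatgccgc
Arntl: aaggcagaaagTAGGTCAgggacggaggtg
Nfil3: gcgctcggaacTGACCTActaacacacatc
A match describes these letters only. The E-box lies 127 bases before the first Tef start and 60 before that of Cry1, and the D-boxes 205 and 158 before that of Per3. The ROR element core lies 31 bases after the second Arntl start and 12 before that of Nfil3.

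Values are normalized read counts, which are reads per gene after the authors' scaling of each library. Whole reads recovered from them ran from 232556 to 593200 per library, so these are shallow libraries, and a gene at 0 reads may still stand at up to 3 reads, or 1.96 to 4.88 normalized counts. The labels do not say whether both libraries of a group are from different mice, so the p-values reflect variation between libraries that may be technical alone. Stat3, the targeted gene, stood at 76.9 and 92.2 in cKO HDM, 134 and 157 in WT HDM, 56.9 and 96.5 in cKO PBS and 75.8 and 40.9 in WT PBS. It was lower in the cKO libraries under HDM and overlapped between genotypes under PBS, so the genotype is given below as labelled. Summed epithelial markers were lowest in WT HDM, at 1230 and 1310 normalized counts. They stood at 1580 and 1489 in cKO HDM and at 1582 to 1691 in the PBS libraries. No epithelial, club or ciliated cell marker was at 0 in both libraries of a group.

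Log2 differences are on the log2(value + 1) scale, which understates the change of low genes, and are given with their standard error from a limma fit to all 8 libraries and all 7512 genes with a mean of at least 10. All 10 members passed that filter. Earlier results of these data had named Tef for its difference between cKO HDM and WT HDM. The members' values in that comparison are therefore a description, with no test.

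The PAR bZIP activators were high in the cKO HDM libraries and low in the WT HDM libraries. Tef, thyrotroph embryonic factor (chromosome 15, 81802421 to 81826863, mm10), had 163 and 115 normalized counts in cKO HDM, 29.998 and 24.5 in WT HDM, 104 and 67.3 in cKO PBS and 77.3 and 55.5 in WT PBS. Both cKO HDM libraries lay above the other 6, and both WT HDM libraries lay below the other 6. The cKO HDM mean of 139 ± 33.3 was 5.10 times the WT HDM mean of 27.2 ± 3.89 (SD, n = 2 each), a log2 difference of 2.30 ± 0.39. Dbp, the D-box binding protein and the output gene with the widest daily swing in many mouse tissues, had 76.9 and 43.2 in cKO HDM, 8.48 and 0 in WT HDM, 26.0 and 3.81 in cKO PBS and 3.83 and 24.6 in WT PBS. Its cKO HDM libraries were again the highest of the 8, with 106 and 52 reads, against 13 and 0 reads in WT HDM. The log2 difference of cKO HDM against WT HDM was 4.25 ± 1.24. Dbp overlaps Sphk2 on the opposite strand, and the labels do not say whether counting used strand, so reads of the pair cannot be told apart. Sphk2 stood at 54.4 and 51.5 in cKO HDM and 32.0 and 28.4 in WT HDM.

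**Figure D1:**
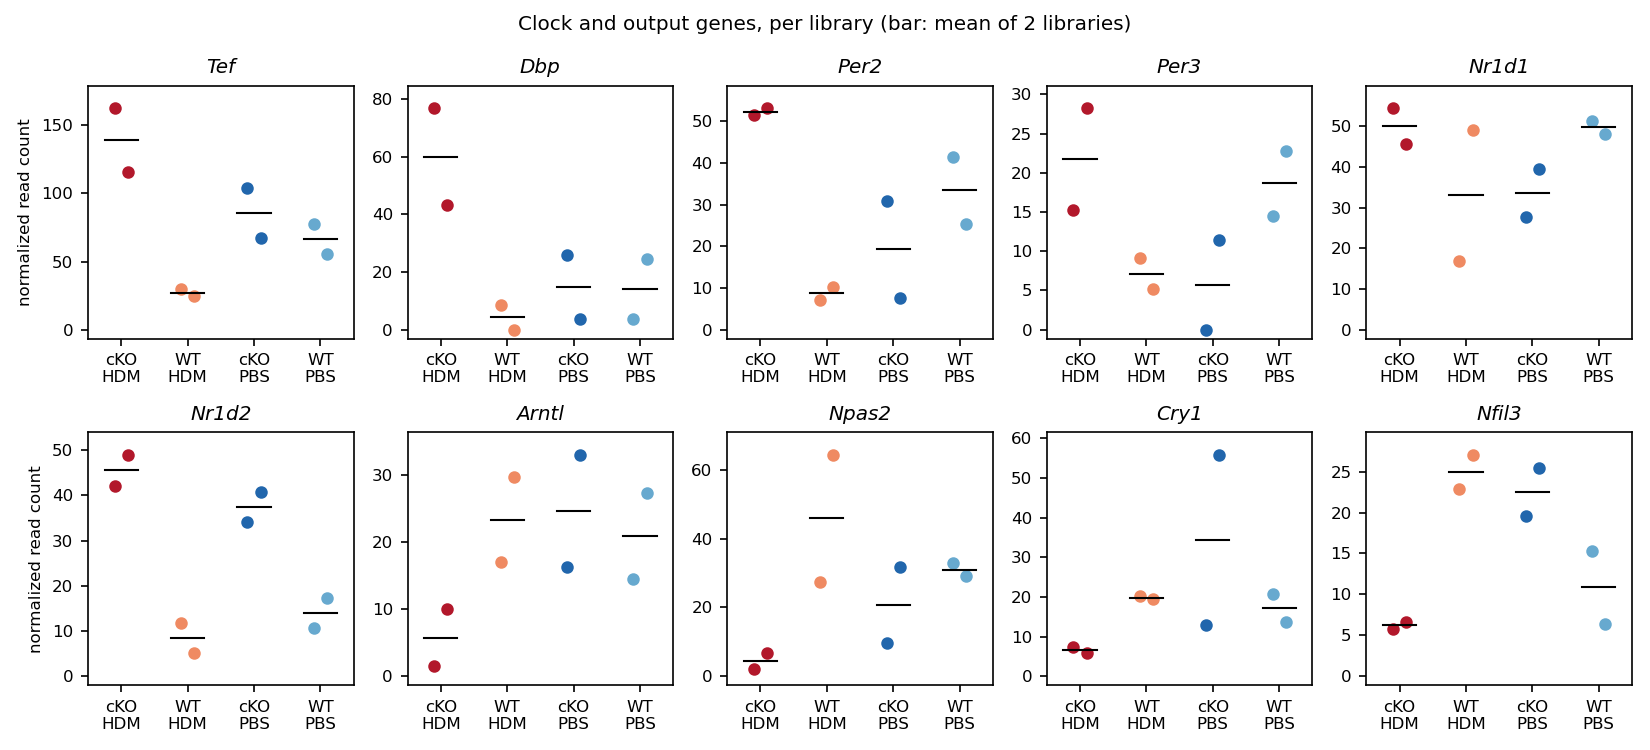
Normalized read counts (y axis, each panel with its own scale) of the 10 genes in each library (points) of the 4 groups (x axis), with a bar at the mean of the 2 libraries. Tef, Dbp, Per2 and Nr1d2 are highest in both cKO HDM libraries, and Arntl, Npas2 and Cry1 are lowest there.

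The Period genes encode the repressors that close the loop. Per2 had 51.5 and 53.2 normalized counts in cKO HDM, 7.17 and 10.3 in WT HDM, 30.9 and 7.62 in cKO PBS and 41.3 and 25.5 in WT PBS. The cKO HDM libraries agreed closely and lay above the other 6, while WT HDM overlapped cKO PBS. Its log2 difference of cKO HDM against WT HDM was 2.47 ± 0.70. Per3 had 15.2 and 28.2 in cKO HDM, 9.13 and 5.16 in WT HDM, 0 and 11.4 in cKO PBS and 14.5 and 22.7 in WT PBS. The HDM groups did not overlap, but cKO HDM overlapped WT PBS, and with 0 to 34 reads per library its log2 difference of 1.46 ± 1.21 was little larger than its error. Per3 overlaps Camta1, a transcription factor gene, on the same strand, so strand could not separate their shared reads. Camta1 stood at 15.2 and 9.97 in cKO HDM, 7.17 and 15.5 in WT HDM, 0 and 12.7 in cKO PBS and 13.013 and 23.6 in WT PBS.

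The REV-ERB repressors differed from each other. Nr1d2, REV-ERB beta, had 42.1 and 49.0 normalized counts in cKO HDM, 11.7 and 5.16 in WT HDM, 34.2 and 40.6 in cKO PBS and 10.7 and 17.3 in WT PBS. Each cKO library thus exceeded each WT library under both treatments, and the log2 difference of cKO HDM against WT HDM was 2.39 ± 0.65. Nr1d1, REV-ERB alpha, had 54.4 and 45.7 in cKO HDM, 17.0 and 49.0 in WT HDM, 27.7 and 39.4 in cKO PBS and 51.3 and 48.2 in WT PBS. Here the second WT HDM library lay within the range of cKO HDM, and the log2 difference was 0.76 ± 0.53. It was the 1 gene of these 6 whose HDM groups overlapped. Nr1d1 overlaps Thra, a thyroid hormone receptor, on the opposite strand, so reads of these genes cannot be told apart without strand. Thra stood at 43.5 and 11.6 in cKO HDM and 58.0 and 82.5 in WT HDM.

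The 4 genes of the opposite phase were low in cKO HDM. Arntl, the core activator, had 1.45 and 9.97 normalized counts in cKO HDM, 17.0 and 29.7 in WT HDM, 16.3 and 33.0 in cKO PBS and 14.5 and 27.3 in WT PBS. Both cKO HDM libraries, with 2 and 12 reads, lay below the other 6, whose groups overlapped one another. Its log2 difference of cKO HDM against WT HDM was -2.18 ± 0.88. Npas2, the alternative partner of ARNTL, had 2.18 and 6.64 in cKO HDM, 27.4 and 64.5 in WT HDM, 9.76 and 31.7 in cKO PBS and 32.9 and 29.1 in WT PBS. This was the widest gap among these 4 genes under HDM, with 3 and 8 reads in cKO HDM against 42 and 50 in WT HDM, and a log2 difference of -3.13 ± 0.79.

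Cry1, a cryptochrome that represses the activator pair, had 7.26 and 5.81 normalized counts in cKO HDM, 20.2 and 19.3 in WT HDM, 13.01 and 55.9 in cKO PBS and 20.7 and 13.6 in WT PBS. The log2 difference of cKO HDM against WT HDM was -1.47 ± 0.81, and the mean of cKO PBS rested on its second library. Nfil3, the D-box repressor, had 5.81 and 6.64 in cKO HDM, 22.8 and 27.1 in WT HDM, 19.5 and 25.4 in cKO PBS and 15.3 and 6.37 in WT PBS. Its log2 difference under HDM was -1.84 ± 0.81. Unlike the other 3 genes of this phase, its second WT PBS library, at 7 reads, lay as low as cKO HDM.

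Summed over each phase, the libraries fell into an order that single low genes show less clearly. The sum of Tef, Dbp, Per2, Per3, Nr1d1 and Nr1d2 was 403 and 335 in cKO HDM, 83.5 and 94.1 in WT HDM, 223 and 170 in cKO PBS and 199 and 194 in WT PBS. The sum of Arntl, Npas2, Cry1 and Nfil3 was 16.7 and 29.1 in cKO HDM, 87.4 and 141 in WT HDM, 58.6 and 146 in cKO PBS and 83.4 and 76.4 in WT PBS. The ratio of the first sum to the other was 24.1 and 11.5 in cKO HDM and 0.955 and 0.670 in WT HDM. In the PBS libraries it was 3.81 and 1.17 in cKO and 2.39 and 2.54 in WT, between the HDM groups. Genes with high counts weigh most in these sums. Tef gave 163 and 115 of the first sum in cKO HDM and 29.998 and 24.5 in WT HDM. Npas2 gave 2.18 and 6.64 of the other sum in cKO HDM and 27.4 and 64.5 in WT HDM. The genes were put into these sums with the values known, so the order is a description.

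**Figure D2:**
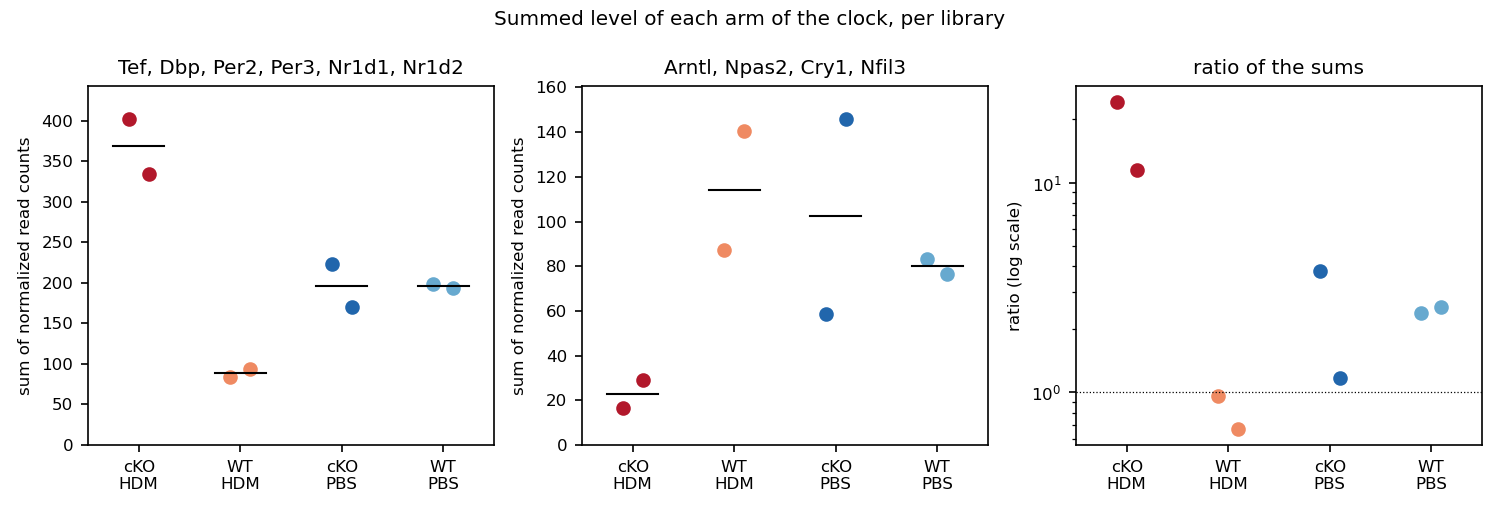
Summed normalized read counts of the 6 genes of one phase (left), of the 4 genes of the opposite phase (middle), and the ratio of the sums on a log axis (right), for each library (points) of the 4 groups, with bars at the mean in the left and middle panels. The ratio is 11.5 and 24.1 in cKO HDM, under 1 in WT HDM, and from 1.17 to 3.81 in the PBS libraries.

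Set against all 8 libraries, 4 of the 10 members (Tef, Dbp, Per2 and Nr1d2) had both cKO HDM libraries above the other 6, where 3.82% of all genes did, and 3 (Arntl, Npas2 and Cry1) had both below, where 3.29% did. Tef alone of the 10 had both WT HDM libraries below the other 6, where 6.16% of all genes did, and 0 members had both above, where 8.99% did. Between cKO HDM and WT HDM, 5 of the 10 members were higher and 4 were lower with no overlap, against 21.1% of all genes tested that were higher and 21.9% that were lower in that way. Tef was the 1 member past the threshold (limma adjusted p under 0.05 over 7512 genes), where 0.572% of all genes were. Without the second WT HDM library, without either cKO HDM library and with no filter on low genes, Tef was not past it, while its log2 difference stayed between 2.05 and 2.54. These counts describe the comparison in view when the genes were listed, and nothing is read from them. The median log2 difference was 2.34 over the 6 genes of one phase and -2.01 over the 4 of the other, beside 0.02 over all genes tested.

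Without allergen the genotypes showed no such split. Between cKO PBS and WT PBS, 3 of the 6 genes with Tef and 3 of the 4 with Arntl had a positive log2 difference, with medians of -0.27 and 0.44, beside -0.09 over all genes. Nr1d2 stood at 1.39 ± 0.65 (limma adjusted p = 0.704) and Nfil3 at 1.09 ± 0.81 (limma adjusted p = 0.794), and both were higher in cKO PBS with no overlap, where 15.7% of all genes were. Per3 at -2.45 ± 1.21 (limma adjusted p = 0.725) and Nr1d1 at -0.58 ± 0.53 (limma adjusted p = 0.837) were lower in cKO PBS with no overlap, where 19.1% of all genes were. Tef stood at 0.35 ± 0.39, with a 95% interval of -0.49 to 1.19, and Dbp at 0.04 ± 1.24, with an interval of -2.59 to 2.67. No member passed with limma, edgeR or DESeq2, 1 member had an unadjusted limma p under 0.05, and of all genes 0% passed with limma and 6.96% had such a p. Without the second cKO PBS library Per3 passed, at -4.26 (limma adjusted p = 0.0427), on the 0 reads of the remaining library, and without the first it stood at -0.63.

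The response to HDM was then compared within each genotype. These comparisons share the HDM libraries with the one above, and each shares its own genotype's PBS libraries with the PBS comparison, so they are not independent of them. In cKO mice, the 6 genes of the Tef phase were each higher in both HDM libraries than in both PBS libraries, and the 4 of the Arntl phase each lower. Among all genes tested, 19.0% were higher and 16.7% lower with no overlap. Per3 stood at 2.63 ± 1.21 (limma adjusted p = 0.617), Dbp at 2.36 ± 1.24 (0.657), Per2 at 1.69 ± 0.70 (0.573) and Tef at 0.70 ± 0.39 (0.680). Arntl stood at -2.22 ± 0.88 (limma adjusted p = 0.553), Npas2 at -1.93 ± 0.79 (0.571), Cry1 at -1.91 ± 0.81 (0.573) and Nfil3 at -1.69 ± 0.81 (0.646). No member passed with limma, edgeR or DESeq2, though 5 had an unadjusted limma p under 0.05, as did 7.77% of all genes, of which 0.0532% passed. The members were chosen with the cKO HDM values in view, so nothing is read from this count or from the lack of overlap. Several of the log2 differences rested on single libraries. Without the first or the second cKO PBS library, Per3 stood at 0.81 or 4.45 (limma adjusted p = 0.834 or 0.0338, where the remaining library had 0 reads), Dbp at 3.61 or 1.12, Per2 at 2.63 or 0.74, Cry1 at -2.92 or -0.90 and Npas2 at -2.73 or -1.13. Without the first or the second cKO HDM library, Arntl stood at -1.14 or -3.31 and Tef at 0.46 or 0.95.

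In WT mice, every sign was turned round. The members were chosen on the gap between the HDM groups, so this reversal is not independent of that choice. The 6 genes of the Tef phase had negative log2 differences of WT HDM against WT PBS, with a median of -1.26, and the 4 of the Arntl phase positive ones, with a median of 0.33, beside -0.03 over all genes. Tef at -1.24 ± 0.39 (limma adjusted p = 0.272), Per2 at -1.80 ± 0.70 (0.437) and Per3 at -1.28 ± 1.21 (0.846) were lower with no overlap, where 20.8% of all genes were. Nfil3 at 1.24 ± 0.81 (limma adjusted p = 0.740) was higher with no overlap, where 21.2% of all genes were. Arntl at 0.16 ± 0.88, Npas2 at 0.43 ± 0.79 and Cry1 at 0.22 ± 0.81 were within their errors of 0, and each became negative when 1 library was left out. No member passed with limma, edgeR or DESeq2, 2 had an unadjusted limma p under 0.05, as did 8.93% of all genes, and 0.519% of all genes passed.

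**Figure D3:**
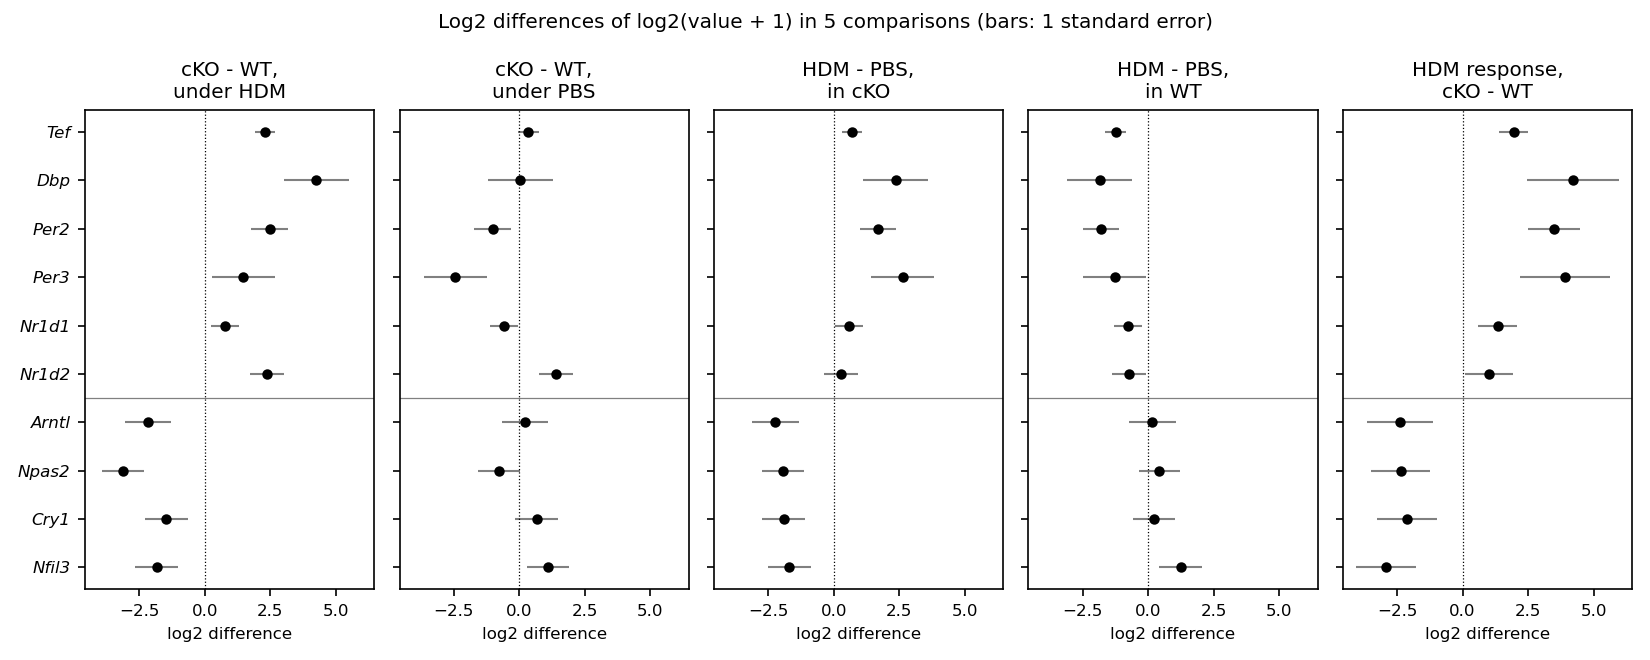
Log2 differences of log2(value + 1) (x axis, points, with bars of 1 standard error from limma) of the 10 genes (y axis) in 5 comparisons, with the 6 genes of the Tef phase above the line and the 4 of the Arntl phase below it. The phases lie on opposite sides of 0 between cKO and WT under HDM, from 0.76 to 4.25 and from -3.13 to -1.47, and not under PBS.

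The difference of the HDM response between genotypes, cKO minus WT, was positive for the 6 genes of the Tef phase and negative for the 4 of the Arntl phase. It stood at 4.21 ± 1.75 for Dbp (limma adjusted p = 0.593), 3.91 ± 1.71 for Per3 (0.623), 3.48 ± 0.99 for Per2 (0.430) and 1.95 ± 0.56 for Tef (0.430). For Nfil3 it was -2.93 ± 1.14 (limma adjusted p = 0.570) and for Arntl -2.39 ± 1.25 (0.670). This difference contains the one between cKO HDM and WT HDM on which the members were chosen, so its sizes and directions are not independent of that choice. No member passed with limma, edgeR or DESeq2, and 0.0266% of all genes passed with limma. An unadjusted limma p under 0.05 was found for 5 members and for 7.77% of all genes, from which nothing is read. The medians were 2.72 and -2.37 over the phases, beside 0.16 over all genes.

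Among other core clock genes, 12 of 17 were measured well enough to be tested, and 0 passed in any of the 5 comparisons with limma. Under HDM, 6 had positive and 6 negative differences of cKO against WT, with a median of -0.05. Bhlhe41 (DEC2), a repressor of E-box genes, had 40.6 and 28.2 normalized counts in cKO HDM and 12.4 and 18.0 in WT HDM, a log2 difference of 1.13 ± 0.59. The gap was there without allergen too, with 37.4 and 34.3 in cKO PBS and 15.3 and 20.9 in WT PBS. Its relative Bhlhe40 (DEC1) had 53.0 and 27.4 in cKO HDM and 66.5 and 95.4 in WT HDM, a difference of -1.04 ± 0.55. Under PBS it lay the other way, with 30.9 and 45.7 in cKO PBS and 23.7 and 10.003 in WT PBS. Rora, an activator at ROR elements, had 7.26 and 9.97 in cKO HDM and 24.1 and 38.7 in WT HDM, a difference of -1.73 ± 0.88, and overlapped under PBS, with 9.76 and 10.2 in cKO PBS and 6.12 and 33.6 in WT PBS. Clock and Per1, chosen after their values were seen because one pairs with ARNTL and the other belongs to the Period family, differed by 0.01 ± 0.58 and 0.38 ± 0.49. Clock had 24.7 and 42.4 in cKO HDM and 32.0 and 32.2 in WT HDM, so that it overlapped where Npas2 did not. Per1 had 35.6 and 33.2 in cKO HDM and 31.3 and 21.9 in WT HDM, without overlap but closer together than Per2.

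Output genes that cycle in many tissues were listed as well, and 12 of 14 in the table were tested, with 0 past the threshold in any comparison with limma. Between cKO HDM and WT HDM 7 were higher and 1 lower with no overlap, beside the 21.1% and 21.9% of all genes given above. This list, like the other gene lists, was chosen with earlier results of these data known, so nothing is read from these counts. By sign 7 were positive and 5 negative, with a median log2 difference of 0.47. The 5 that met the naming rule were all higher, and the lower one without overlap was Cdkn1a, a cell cycle inhibitor named here after its value was seen, at -0.90 ± 0.36. Usp2, a deubiquitinase that cycles with the core clock, had 43.5 and 70.6 normalized counts in cKO HDM, 17.0 and 15.5 in WT HDM, 56.9 and 47.0 in cKO PBS and 56.6 and 27.3 in WT PBS. Cyp2a5, a cytochrome that depends on the PAR bZIP factors in mouse liver, had 181 and 179 in cKO HDM, 50.2 and 74.8 in WT HDM, 185 and 150 in cKO PBS and 103 and 200 in WT PBS. For both genes WT HDM was below the other 3 groups, which overlapped, whereas Tef also separated cKO HDM from PBS. Cyp2a5 has close paralogs, and its reads may be split with error.

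Alas1, the first enzyme of haem synthesis and another gene that depends on these factors in mouse liver, had 602 and 346 in cKO HDM, 176 and 266 in WT HDM, 359 and 383 in cKO PBS and 357 and 308 in WT PBS. Noct, a cycling phosphatase, had 18.1 and 37.4 in cKO HDM and 4.56 and 11.6 in WT HDM, and Wee1, a cell cycle kinase with E-boxes in its promoter, had 40.6 and 21.6 in cKO HDM and 10.4 and 14.2 in WT HDM. The log2 differences of cKO HDM against WT HDM were 1.72 ± 0.51 for Usp2, 1.54 ± 0.35 for Cyp2a5, 1.07 ± 0.29 for Alas1, 1.69 ± 0.98 for Noct and 1.22 ± 1.24 for Wee1.

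**Figure D4:**
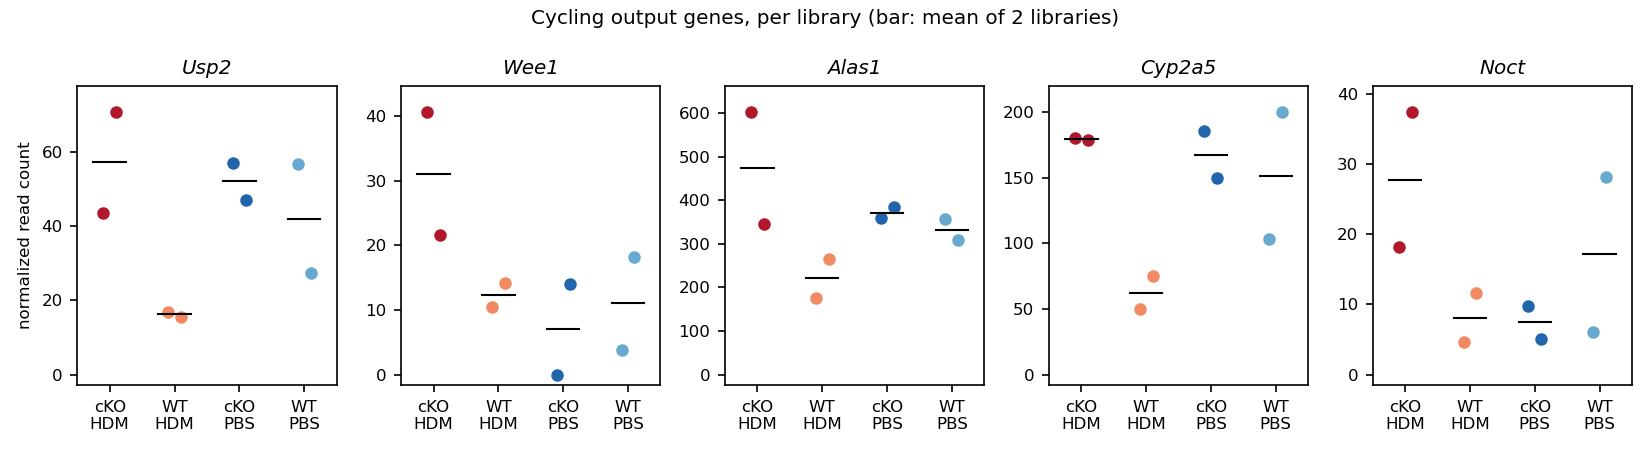
Normalized read counts (y axis, each panel with its own scale) of the 5 cycling output genes that met the naming rule, in each library (points) of the 4 groups (x axis), with bars at the mean of the 2 libraries. In each gene both cKO HDM libraries lie above both WT HDM libraries, and for Usp2, Alas1 and Cyp2a5 WT HDM is the lowest of the 4 groups.

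Glucocorticoids, adrenal hormones whose daily surge sets peripheral clocks, act on a further list of genes, of which 11 of 14 were tested. None passed in any comparison with limma (0 of 11), and 2 of 11 had an unadjusted limma p under 0.05 between cKO HDM and WT HDM, where 9.6% of all genes did. The median difference there was -0.28, with 4 positive and 7 negative. Errfi1, an inhibitor of EGF receptor signalling, had 52.2 and 58.1 normalized counts in cKO HDM, 167 and 121 in WT HDM, 61.8 and 57.1 in cKO PBS and 85.0 and 92.8 in WT PBS. Cebpd, an inflammatory transcription factor, had 16.7 and 15.0 in cKO HDM, 29.3 and 69.6 in WT HDM, 11.4 and 15.2 in cKO PBS and 26.8 and 23.6 in WT PBS. Sgk1, a kinase of ion transport, had 15.2 and 11.6 in cKO HDM, 20.9 and 43.8 in WT HDM, 6.51 and 14.0 in cKO PBS and 40.6 and 18.2 in WT PBS. All 3 were thus lower in cKO with no overlap under PBS as well. Under HDM, 3 of the 11 genes were lower and 2 higher in cKO with no overlap, beside 21.9% and 21.1% of all genes. Under PBS, 4 were lower and 1 higher in that way, beside 19.1% and 15.7%. The higher genes, named after their values were seen, were Klf9 and Per1 under HDM and Klf9 under PBS. By sign, 8 of the 11 genes had a negative difference under PBS, and the median was -0.19.

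The libraries that stood lowest in Tef also differed in markers of other cells, and the part of these in the clock genes was not tested. The 10 endothelial markers summed to 200 and 248 normalized counts in cKO HDM, 981 and 1037 in WT HDM, and 208 to 343 in the PBS libraries, and all 9 tested were lower in cKO HDM than in WT HDM. The 8 fibroblast and smooth muscle markers summed to 104 and 105 in cKO HDM, 1197 and 1266 in WT HDM, and 34.2 to 109 in PBS. Of these, Pdgfrb was at 0 in both cKO HDM libraries, Pdgfrb and Myh11 in both cKO PBS libraries and Acta2 in both WT PBS libraries. The 8 alveolar type 2 markers summed to 4399 and 4813 in cKO HDM, 9024 and 13505 in WT HDM and 4016 to 5590 in PBS, and all 8 were lower in cKO HDM than in WT HDM. Macrophage and dendritic cell markers summed to 363 and 379 in cKO HDM, 1162 and 2056 in WT HDM and 362 to 758 in PBS. Only 1 of these 8 markers had a mean of at least 10, so the sums rest largely on that gene and are a poor measure of these cells. Cd68, Adgre1, Itgam, Csf1r and Marco were at 0 in both cKO HDM libraries and in both cKO PBS libraries. All of these but Marco were at 0 in both WT PBS libraries as well. Ptprc, the pan-leukocyte marker CD45, was at 0 in both cKO HDM and both cKO PBS libraries. It stood at 0 and 3.64 in WT PBS and at 12.4 and 37.4 in WT HDM. Red blood cell markers summed to 13.1 and 0 in cKO HDM, 226 and 418 in WT HDM and 22.8 to 30.5 in PBS.

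The 8 ciliated cell markers went the other way, with sums of 2147 and 2056 in cKO HDM, 1116 and 1084 in WT HDM and 1625 to 1850 in PBS, and all 8 were higher in cKO HDM than in WT HDM. The 6 club cell markers summed to 5012 and 6967 in cKO HDM, 4670 and 6177 in WT HDM and 6941 to 12610 in PBS. In bulk samples such as these, fewer cells of a type and less RNA per cell cannot be told apart. Ciliated cell sums in cKO HDM lay above the range of the PBS libraries, and endothelial, fibroblast and alveolar type 2 sums lay within or close to it.

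**Figure D5:**
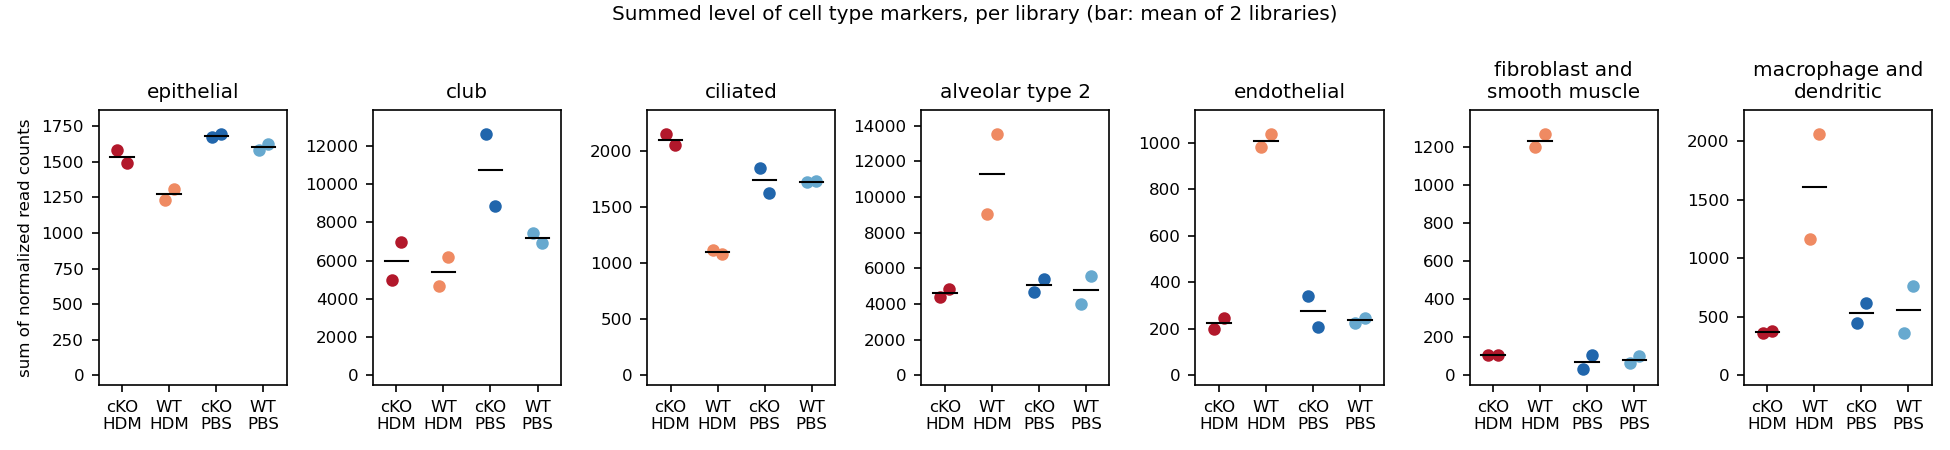
Summed normalized read counts (y axis, each panel with its own scale) of markers of 7 cell types in each library (points) of the 4 groups (x axis), with bars at the mean of the 2 libraries. Endothelial and fibroblast sums are 981 to 1266 in WT HDM and 34.2 to 343 in all other libraries.

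The genes most like the Tef phase in pattern were found by Pearson correlation, over the 8 libraries, with the mean standardized profile of Tef, Dbp, Per2, Per3, Nr1d1 and Nr1d2, leaving out predicted, clone-named and small RNA genes. They were Slc16a7, a monocarboxylate transporter (r = 0.962), Drc1, a subunit of the dynein regulatory complex of motile cilia (0.960), Ddx19b, an RNA helicase (0.936), Tns2, a tensin (0.934), and Arhgef28, a guanine nucleotide exchange factor (0.924). Slc16a7 had 123 and 110 normalized counts in cKO HDM, 55.4 and 45.1 in WT HDM, 74.8 and 64.8 in cKO PBS and 66.6 and 86.4 in WT PBS, the same order of HDM groups around PBS as in Tef. Ddx19b had 59.5 and 64.0 in cKO HDM, 17.6 and 14.2 in WT HDM, 26.0 and 35.6 in cKO PBS and 23.7 and 29.1 in WT PBS. The genes that make up the profile followed it unevenly. Tef stood at 0.901, Per2 at 0.844, Dbp at 0.792, Nr1d2 at 0.739, Nr1d1 at 0.565 and Per3 at 0.451. Among all genes tested, Nr1d1 ranked 766 and Per3 ranked 1261, so many genes outside the profile were closer to it than these members. Nfil3 stood at -0.873, Npas2 at -0.790, Arntl at -0.677 and Cry1 at -0.620, as the choice of the members largely fixes. The points share library and depth, and these values are a description.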

How the data were processed

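The authors deposited 1 table of normalized read counts, a signal value per gene and library. HOMER, DESeq2 and the build mm10 are named in the submitters' processing notes, while aligner, annotation, versions and strand use were not stated. Within each library 100% of the non-zero deposited signal values were whole multiples of 1 step within 0.01 reads, so whole reads were recovered. Values were analysed as log2(value + 1) for the 7512 genes with a mean of at least 10. One mean per group was fitted to the 8 libraries with limma 3.58.1 (trended eBayes, R 4.3.3), with two-sided tests and Benjamini-Hochberg adjustment over all genes tested. The alternatives were pseudocounts of 0.2 and 5, no filter or a minimum mean of 50, recomputed size factors, a replicate block, fits of only the groups compared, each library left out, and edgeR 4.0.16 and DESeq2 1.42.0 on whole reads. The limma fit was also run on simulated counts with the same dispersion in every gene, so that run does not measure error rates in these libraries. The members and gene lists were chosen with earlier results of these data known. From each list, genes that passed in any comparison were named, and those whose HDM groups did not overlap and differed by at least 1 (log2), up to 6 per list. Positions of genes are from GENCODE M21 (GRCm38, the same assembly as mm10), and promoter sequences from RefSeq on GRCm38.p6. Intervals and the floor of 3 reads cover counting error or the spread of libraries only.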

Additional observations from a re-analysis of the deposited data

Results flagged for a closer look

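For 4 of the 10 genes, the HDM libraries lay on opposite sides of the PBS libraries in the genotypes, with no overlap in either, and 7.77% of all 7512 genes tested showed such a pattern. Tef (difference of the HDM response, cKO minus WT, 1.95), Per2 (3.48) and Per3 (3.91) had higher values with HDM in cKO and lower values with HDM in WT, and Nfil3 (-2.93) the reverse. None of the 4 passed within a genotype (limma adjusted p from 0.573 to 0.680 in cKO and from 0.272 to 0.846 in WT) or for the difference itself (0.430 to 0.623). That difference contains the one between cKO HDM and WT HDM on which the members were chosen, so it is not independent of that choice.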

How the results depend on the processing

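Counts of all genes past the threshold moved with the settings, and the cause was not tested. Between cKO and WT under HDM, 43 genes passed, against 99 with a pseudocount of 5, 9 with no filter, 85 with a minimum mean of 50, 142 in a fit of only the groups compared, 126 with DESeq2 and 3 to 117 with a library left out. The clock members among them numbered 1, against 2 with a pseudocount of 5 (Tef and Dbp) and 0 with no filter. They numbered 3 in a fit of only the groups compared and 3 with DESeq2. The members were chosen with this comparison in view, so these counts of members are a description, with no test. For HDM against PBS in cKO, 4 genes passed, against 0 with a pseudocount of 0.2, 14 with one of 5, 0 with no filter, 16 with a minimum mean of 50, 0 in a fit of only the groups compared, 28 with DESeq2 and 0 to 320 with a library left out, with 0 to 1 member. For HDM against PBS in WT, 39 genes passed, against 16 with a pseudocount of 0.2, 108 with one of 5, 14 with no filter, 77 with a minimum mean of 50, 190 in a fit of only the groups compared, 59 with edgeR, 134 with DESeq2 and 3 to 110 with a library left out. Between cKO and WT under PBS, 0 genes passed with limma, edgeR or DESeq2 (523 at an unadjusted limma p under 0.05), and 0 to 315 with a library left out, with 0 to 1 member. For the difference of the HDM response, 2 genes passed, against 0 with a pseudocount of 0.2, 12 with one of 5, 0 with no filter, 9 with a minimum mean of 50, 7 with edgeR, 27 with DESeq2 and 0 to 115 with a library left out.

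Of the members' log2 differences, 0 of 395 changed sign under other settings and 10 of 400 did so with a library left out. Both totals include many values that could not change sign. The filters, the replicate block and the fits of only the groups compared leave a log2 difference as it was. Recomputed size factors were equal across the libraries. Leaving out a library outside the groups compared changes nothing either, so these totals do not measure robustness. For HDM against PBS in WT, the ranges with a library left out were -0.27 to 0.59 for Arntl (-0.22 without the second WT HDM library), -0.061 to 0.50 for Cry1 and -0.17 to 1.03 for Npas2. For cKO against WT under PBS they were -0.28 to 0.70 for Arntl, -0.35 to 1.68 for Cry1, -1.21 to 1.28 for Dbp and -1.57 to 0.036 for Npas2. Deviations of same-numbered libraries correlated at -0.016 to 0.018, so no large deviation shared by replicate number was seen. In libraries this shallow that cannot show whether they were paired, and the labels state no pairing. With the replicate block, 48 genes and 1 member passed between cKO and WT under HDM. With 2 libraries a group and 0 to 59 reads in many member values, small differences were not detectable at this depth.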
